A study of Mus musculus with 2 samples.

Results

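Receptors for fibroblast growth factors (FGFs) and the genes that FGF signalling switches on as its own brakes and outputs were followed across the cell types of the mouse tail end at embryonic day 8.5 (E8.5). The 10 genes were chosen by symbol, out of 32286 features counted in each library: the receptors Fgfr1, Fgfr2 and Fgfr3, the Sprouty genes Spry1, Spry2 and Spry4, the dual-specificity phosphatase genes Dusp4 and Dusp6, and the ETS transcription factor genes Etv4 and Etv5. The series held 2 droplet single-cell libraries of 1 group, replicates 1 and 2, from pooled and TrypLE-dissociated caudal tissues of wild type C57BL/6J embryos, captured at the 5′ end of transcripts on the 10x Genomics Chromium. There was no treated or mutant group, so every comparison below is between cell types of the same 2 libraries. Nothing in the labels ties the libraries to distinct pools of embryos. A shift that all cell types of a library share was taken out in the fit. The p-values measure only how differently the cell types changed between these 2 libraries, pooled over the types tested, and that scatter may be technical.

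FGFs bind receptor tyrosine kinases at the cell surface, which relay through the adaptor FRS2 and the RAS pathway to the kinase ERK. ERK signalling induces the ETS factors ETV4 and ETV5, which carry part of the transcriptional response, and also its own inhibitors: Sprouty proteins act between the receptor and RAS, and DUSP4 and DUSP6 remove the activating phosphates from ERK. In the tail end of the embryo, FGF8 and other FGFs are made in and around the primitive streak and the posterior presomitic mesoderm, and falling FGF activity towards the head end accompanies the maturation of presomitic mesoderm into somites and of the caudal epiblast into neural tube. Transcript levels of Spry, Dusp and Etv genes are widely used as a readout of FGF and ERK activity.

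Cells were sorted into types by marker genes, since no annotation of cells was used here. Of 30449 and 18245 barcodes, those with at least 2000 unique molecular identifiers (UMIs, counted transcripts) and 0.3 to 10% mitochondrial UMIs were kept, 11244 in replicate 1 and 8328 in replicate 2, with a median of 17872.5 and 13685.5 UMIs. A cell was given a type where at least 2 markers of that type, and at least 2 more than of any other type, were detected. The 8 types with 50 or more cells in each library had from 153 cells (neural tube, replicate 2) to 1179 (lateral plate, replicate 2), and 5619 and 3836 kept cells were given no type. Among these 8 types, 46 of 48 gate markers were highest in their own type in both libraries, the exceptions being Trh and Pyy of the gut endoderm, and 9 of 16 markers held back as a check were. In both libraries T was higher in presomitic mesoderm than in caudal epiblast, and Krt8 and Epcam were higher in gut endoderm than in surface ectoderm. In replicate 2 alone, Wnt3a of the caudal epiblast was higher in presomitic mesoderm, Sox17 of the gut endoderm in endothelium, and Gata4 and Twist1 of the lateral plate in gut endoderm and in somite. The libraries did not hold the same tissues in full, since 127 blood cells were found in replicate 2 against 0 in replicate 1, and 2 extraembryonic endoderm cells in replicate 2 against 162 in replicate 1. The libraries shared 761 barcode sequences, 114 of them among kept cells.

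Levels below are in CPM, the gene's UMIs scaled to a total of 1000000 UMIs summed over all cells of a type in a library, and are compared within a gene only. Blood cells of replicate 2 were used as a guide to the signal that free RNA may leave in cells. Whether blood cells express these genes was not tested, and replicate 1 held no gated blood cells to compare. Globin genes took a large part of the blood UMIs (Hba-x 126869 and Hbb-bh1 95882 CPM), which lowers the CPM of other genes there. In blood, the 10 members had between 0 (Fgfr3) and 7.42 CPM (Dusp4), with Fgfr2 at 4.94, Spry2 at 0.353 and Spry4 at 2.12 CPM. Levels of this size in other types cannot be told apart from a possible background.

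**Figure D1:**
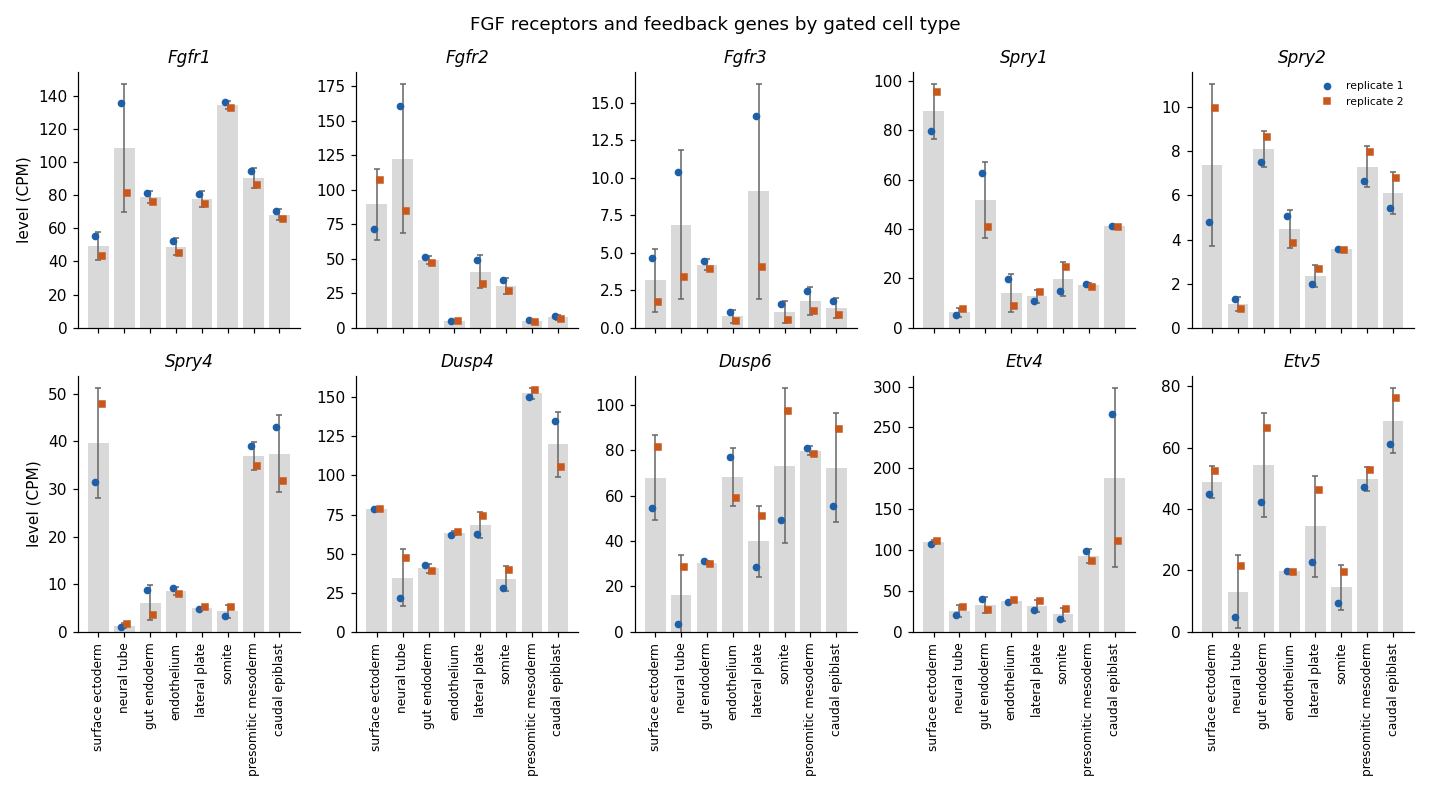
Level of each of the 10 genes in the 8 gated cell types. The y axis is CPM on a linear scale from 0 with its own range for each gene, points are replicate 1 (circles) and replicate 2 (squares), and bars and whiskers are the mean ± SD of the 2 libraries. Fgfr2 stands highest in neural tube and surface ectoderm, whereas Spry4, Dusp4 and Etv4 stand high in caudal epiblast, presomitic mesoderm and surface ectoderm and low in neural tube and somite.

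Fgfr1, the receptor known to be needed in early mesoderm, was detected in every gated type and varied least of the receptors. It averaged 134 ± 2.51 CPM in somite, the highest of the 8 types, and 48.9 ± 5.18 CPM in endothelium, the lowest (SD, n = 2 libraries each), a 2.75-fold range. In the order of means, somite, neural tube, presomitic mesoderm, gut endoderm, lateral plate, caudal epiblast, surface ectoderm and endothelium, only 3 of the 7 neighbouring pairs did not overlap between libraries: presomitic mesoderm over gut endoderm, lateral plate over caudal epiblast, and caudal epiblast over surface ectoderm. Fgfr1 lies at chr8:25513654-25575718 on the plus strand of mm10 (GENCODE M21), where a counted antisense transcript, Gm16159, overlaps it.

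Fgfr2, whose protein in epithelia serves as a receptor for FGF10 and related ligands, had the wider span, with 123 ± 54.1 CPM in neural tube and 4.98 ± 0.953 CPM in presomitic mesoderm. Neural tube and surface ectoderm (89.4 ± 25.4 CPM) overlapped at the top, followed by gut endoderm, lateral plate and somite, whose libraries also overlapped from one to the next. Caudal epiblast, endothelium and presomitic mesoderm were lowest, at 8.57 and 6.35, 4.76 and 5.22 and 5.65 and 4.3 CPM in replicates 1 and 2, close to the 4.94 CPM of blood. The annotated span of Fgfr2 in GENCODE M21, chr7:130162451-133123350 on the minus strand, takes in 48 other counted genes, 22 of them on the same strand and including the gate marker Nkx1-2. The 250 bases before the RefSeq start site of Fgfr2 lie at chr7:130266809-130267058 on the minus strand. By that start site, most of the GENCODE span lies upstream of the gene, and which of the 48 genes lie there was not counted. The sources used here do not name the annotation the authors counted with. If it used the GENCODE span, reads of those genes may in part have been withheld from Fgfr2 or given to it.

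Fgfr3 was the least detected receptor, from 9.09 ± 7.17 CPM in lateral plate to 0.757 ± 0.428 CPM in endothelium. None of its 7 neighbouring pairs was separate between libraries. It was higher in replicate 1 in all 8 types, by most in lateral plate, where the libraries gave 14.2 and 4.02 CPM. Extraembryonic endoderm of replicate 1, which was not tested, had 13.8 CPM. Fgfr3 lies at chr5:33721674-33737068 on the plus strand.

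The Sprouty genes each had their own order of types, and all 3 were lowest in neural tube. Spry1 was highest in surface ectoderm (87.7 ± 11.1 CPM), separate from gut endoderm (51.8 ± 15.3 CPM) below it, and lowest in neural tube (6.29 ± 1.8 CPM), where its libraries, at 5.02 and 7.56 CPM, lay on either side of the 5.65 CPM of blood. Spry2 was sparse throughout, from 8.09 ± 0.819 CPM in gut endoderm to 1.07 ± 0.326 CPM in neural tube. Spry4 had 39.7 ± 11.5 CPM in surface ectoderm, 37.4 ± 8.08 CPM in caudal epiblast and 36.9 ± 2.9 CPM in presomitic mesoderm, which overlapped, a gap to 8.58 ± 0.894 CPM in endothelium, and 1.3 ± 0.531 CPM in neural tube. The neural tube values of Spry2 (1.3 and 0.84 CPM) and Spry4 (0.929 and 1.68 CPM) rested on 7 and 2 UMIs and on 5 and 4 UMIs. Those of Spry4 were below its blood value of 2.12 CPM, and those of Spry2 above its blood value of 0.353 CPM, which rested on 1 UMI. Ratios between types that rest on values of this size depend on the background.

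The share of cells with a Spry4 UMI gave the same picture as the levels, but it counts the same UMIs and is no separate support. Shares are given here for Spry4 only, the member with the widest range of means over the 8 types. After every cell was thinned to 10500 UMIs and shallower cells were left out, Spry4 was detected in 35.6% of 962 caudal epiblast cells of replicate 1 (95% exact binomial interval 32.5 to 38.7%) and in 26.7% of 633 of replicate 2 (23.3 to 30.3%). In neural tube it was detected in 1 of 239 cells of replicate 1 (0.418%, interval 0.0106 to 2.31%) and 1 of 136 of replicate 2 (0.735%, interval 0.0186 to 4.03%), no more than the 2 of 119 blood cells (1.68%, interval 0.204 to 5.94%). Before thinning the shares were 47.5% and 33.5% in caudal epiblast, 1.89% and 2.61% in neural tube and 3.15% in blood, at median depths of 16844.5 and 15109 UMIs in caudal epiblast, 20383 and 15490 in neural tube and 22149 in blood. Intervals here cover counting error only.

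The phosphatase genes differed in pattern. Dusp4 was highest in presomitic mesoderm (152 ± 3.41 CPM), then caudal epiblast (119.9 ± 20.9 CPM) and surface ectoderm (78.5 ± 0.287 CPM), each separate from the next, and lowest in somite (34.1 ± 8.12 CPM). Dusp6, the phosphatase most selective for ERK, was spread more evenly: presomitic mesoderm, somite, caudal epiblast, endothelium and surface ectoderm lay between 79.8 ± 1.88 and 67.9 ± 18.8 CPM and overlapped from one to the next, and neural tube was lowest at 16 ± 17.7 CPM. Dusp6 was also the member whose libraries differed most, with a median log2 ratio of replicate 2 over replicate 1 (on CPM + 5) of 0.59 over the 8 types, against a median of 0.03 and a range from the 5th to the 95th percentile of -0.35 to 0.49 over 8366 genes of at least 20 CPM. Dusp4 lies at chr8:34807297-34819894 and Dusp6 at chr10:99263231-99267489, both on the plus strand.

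Of the ETS factors, Etv4 was highest in caudal epiblast, at 266 and 111 CPM in replicates 1 and 2, then in surface ectoderm (108 and 111 CPM) and presomitic mesoderm (98.4 and 87 CPM). These 3 did not overlap, but replicate 2 of caudal epiblast, at 111.4 CPM, stood only just above replicate 2 of surface ectoderm, at 111.2 CPM, and the gap between the libraries of caudal epiblast, a log2 ratio of -1.22 on CPM + 5, was the largest of the 8 types for Etv4. Etv5 was highest in caudal epiblast as well (68.7 ± 10.6 CPM) and lowest in neural tube (13.1 ± 11.7 CPM), and the 5 highest types, caudal epiblast, gut endoderm, presomitic mesoderm, surface ectoderm and lateral plate, overlapped from one to the next. Etv5 was higher in replicate 2 in 7 of 8 types. Etv4 lies at chr11:101769742-101785371 and Etv5 at chr16:22381309-22439719, both on the minus strand.

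Spry1, Spry2 and Dusp6 are shown by the 250 bases that precede their start sites, as 3 feedback genes that were all lower in neural tube than in caudal epiblast. Sequences are from RefSeq on GRCm38.p6, the assembly of mm10, written 5′ to 3′ on the gene's strand, and capitals mark GGAA, the core that ETS factors such as ETV4 and ETV5 bind, or its complement TTCC. Spry1 is given from chr3:37639697-37639946 (plus strand), Spry2 from chr14:105896820-105897069 (minus strand) and Dusp6 from chr10:99262981-99263230 (plus strand).
Spry1: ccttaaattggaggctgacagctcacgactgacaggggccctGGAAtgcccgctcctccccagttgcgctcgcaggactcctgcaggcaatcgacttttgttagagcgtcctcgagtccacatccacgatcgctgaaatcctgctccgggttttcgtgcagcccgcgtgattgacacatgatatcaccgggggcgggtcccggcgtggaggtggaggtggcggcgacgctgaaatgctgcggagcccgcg
Spry2: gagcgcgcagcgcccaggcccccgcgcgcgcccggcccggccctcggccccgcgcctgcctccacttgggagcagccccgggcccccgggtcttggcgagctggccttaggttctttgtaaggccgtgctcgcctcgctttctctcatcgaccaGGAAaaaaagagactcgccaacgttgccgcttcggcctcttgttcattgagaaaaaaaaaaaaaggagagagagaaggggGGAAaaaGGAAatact
Dusp6: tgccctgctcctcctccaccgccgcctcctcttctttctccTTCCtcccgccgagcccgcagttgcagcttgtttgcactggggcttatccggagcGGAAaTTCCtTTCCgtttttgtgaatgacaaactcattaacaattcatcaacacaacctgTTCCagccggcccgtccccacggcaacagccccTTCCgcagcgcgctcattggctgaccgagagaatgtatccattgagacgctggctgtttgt
The core was found in 1 place upstream of Spry1, in 3 places upstream of Spry2 and in 6 upstream of Dusp6. It occurred on either strand in 93.4% of the 32851 promoter windows of the same length. Counted by member and not by window, it was in 6 of the 6 members that matched the promoter table. Fgfr3 and Etv5 had 2 windows each, and the window at start site 1 of Etv5 lacked the core. The core therefore does not set these genes apart. The longer motif CCGGAAG, which holds the core, was in 6.91% of all windows and in 0 of these 6 members' windows, which says only that those letters are not in them.

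Comparisons between types were fitted on UMIs summed per type and library with edgeR's quasi-likelihood test, with library as a block and Benjamini-Hochberg adjustment over the 13730 genes tested, and all 10 members passed its filter on low counts. Values are given for replicate 1 and then replicate 2 of each type, and fold changes are log2 with their standard error.

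Neural tube was set against caudal epiblast, the tissue that feeds it. All 10 members passed the threshold of 0.05, the 3 receptors higher and the 7 feedback genes lower in neural tube, where 6.9% of all genes tested passed (3.26% higher and 3.64% lower). The median log2 fold change was -2.43 over the members and -0.03 over all genes. Fgfr2 had 161 and 84.4 CPM in neural tube, against 8.57 and 6.35 CPM in caudal epiblast. The libraries were far apart between the types and did not overlap (log2 fold change 4.02 ± 0.28, adjusted p = 8.58e-06). Fgfr3 had 10.4 and 3.36 CPM in neural tube, against 1.81 and 0.869 CPM in caudal epiblast, again without overlap (log2 fold change 2.34 ± 0.36, adjusted p = 0.00175). Fgfr1 had 136 and 81.1 CPM in neural tube, against 70.4 and 65.7 CPM in caudal epiblast (log2 fold change 0.67 ± 0.14, adjusted p = 0.0119), with both neural tube libraries above both of caudal epiblast but replicate 1 by much more.

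Among the feedback genes, Spry4 had 0.929 and 1.68 CPM in neural tube, against 43.1 and 31.6 CPM in caudal epiblast. Both neural tube libraries were below the value of blood, and both caudal epiblast libraries were many times above it (log2 fold change -5.01 ± 0.45, adjusted p = 4.31e-05). Spry1 had 5.02 and 7.56 CPM in neural tube, against 41.4 and 40.8 CPM in caudal epiblast, and here too the types did not overlap (log2 fold change -2.81 ± 0.40, adjusted p = 9.99e-04). Etv4, an output of FGF signalling, had 20.1 and 30.7 CPM in neural tube, against 266 and 111 CPM in caudal epiblast (log2 fold change -2.97 ± 0.40, adjusted p = 6.51e-04). Both libraries of neural tube were below both of caudal epiblast, with replicate 1 of caudal epiblast far above the rest. Etv5 had 4.83 and 21.4 CPM in neural tube, against 61.3 and 76.2 CPM in caudal epiblast (log2 fold change -2.67 ± 0.36, adjusted p = 7.02e-04). Dusp6 had 3.53 and 28.6 CPM in neural tube, against 55.3 and 89.4 CPM in caudal epiblast (log2 fold change -2.51 ± 0.50, adjusted p = 0.00796). In both genes the neural tube of replicate 1 was below the blood value (4.94 CPM for Etv5 and 4.59 CPM for Dusp6), and that of replicate 2 was well above it, though below caudal epiblast. Dusp4 (log2 fold change -1.93 ± 0.24, adjusted p = 4.60e-04) and Spry2 (log2 fold change -2.35 ± 0.43, adjusted p = 0.00501) were lower as well.

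Which library was used moved 6 of these values by more than 1.5-fold. Without replicate 2 and without replicate 1, in that order, the log2 fold changes were -2.07 and -3.0 for Spry2, -5.54 and -4.24 for Spry4, -2.64 and -1.16 for Dusp4, -3.99 and -1.66 for Dusp6, -3.75 and -1.87 for Etv4, and -3.69 and -1.84 for Etv5, each lower in both. Without the library block, the adjusted p was 0.202 for Fgfr1, 0.194 for Fgfr3 and 0.09 for Dusp6, so that 7 of the 10 passed. The gated neural tube cells also differed between replicates 1 and 2 in some of their gate markers. Sox1 had 155 and 65.5 CPM, Olig2 9.1 and 45.8 CPM and Nkx6-1 38.1 and 81.5 CPM. Rfx4, at 83.4 and 80.2 CPM, and Nkx2-9, at 61.3 and 66 CPM, were alike. Whether the make-up of these cells bears on the gaps between libraries was not tested.

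Of 47 tested genes on 5 other FGF pathway lists (ligands, other receptors and co-receptors, signal relay, other feedback inhibitors and other ERK-induced genes), 3 were higher and 9 lower in neural tube, with a median log2 fold change of -0.31. Fgf8, the chief ligand of the tail end, had 5.95 and 5.04 CPM in neural tube, against 373 and 298 CPM in caudal epiblast (log2 fold change -6.08 ± 0.45, adjusted p = 1.23e-05). Fgf17, a close relative of Fgf8, had 2.04 and 4.62 CPM in neural tube, against 110.2 and 209.8 CPM in caudal epiblast (log2 fold change -5.68 ± 0.47, adjusted p = 2.88e-05). Both ligand genes were many times lower in each library. Fgf15, a ligand gene expressed in the brain and tail bud, was higher instead, at 70.6 and 147 CPM in neural tube, against 21.3 and 7.74 CPM in caudal epiblast (log2 fold change 3.05 ± 0.57, adjusted p = 0.00548), and of the 9 ligand genes 1 was higher and 3 were lower. Fgfr4, the remaining signalling receptor of the family, had 19.5 and 3.78 CPM in neural tube, against 0.666 and 0.695 CPM in caudal epiblast (log2 fold change 4.14 ± 0.51, adjusted p = 3.62e-04), so that all 4 receptor genes were higher in neural tube. The other gene on the lists that was higher was Flrt3 (log2 fold change 1.5 ± 0.37, adjusted p = 0.0291). Fgf4 had no UMI in neural tube, where a count of 0 allows up to 0.557 and 1.26 CPM in the libraries, against 2.57 and 0.261 CPM in caudal epiblast.

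**Figure D2:**
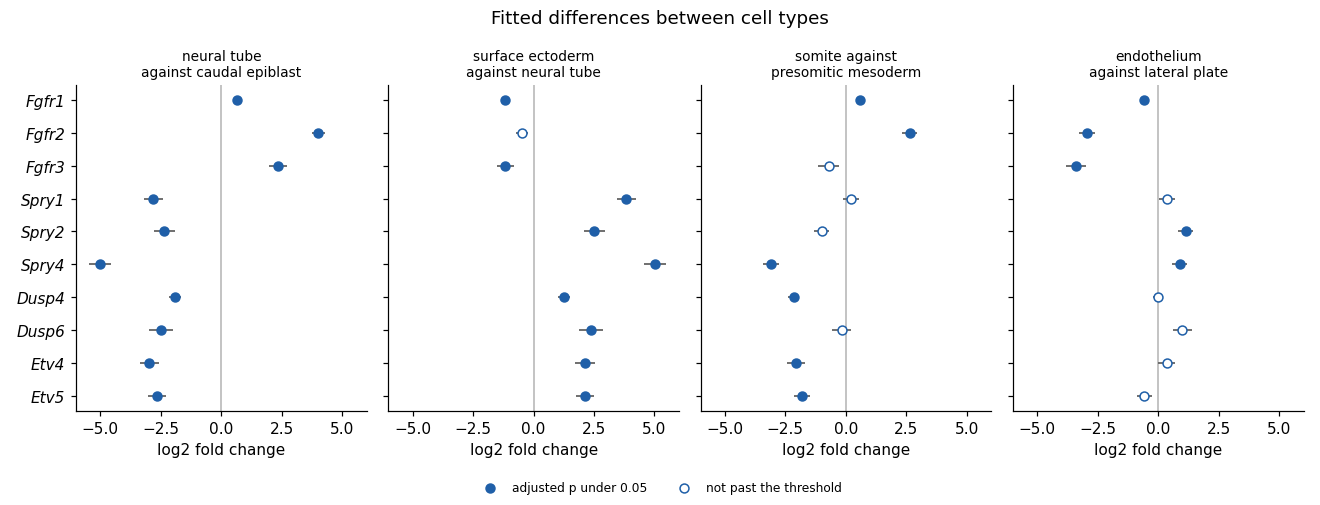
Fitted log2 fold changes of the 10 genes in 4 comparisons, each panel naming the type on top first. Points are the fit over both libraries, whiskers are ± 1 standard error, filled points have an adjusted p under 0.05 and open points do not. In neural tube against caudal epiblast the receptors lie to the right and the feedback genes to the left, and in surface ectoderm against neural tube 7 feedback genes lie to the right.

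Surface ectoderm, the outer epithelium that will form epidermis, was set against neural tube, a comparison added after levels had been seen and one that shares its neural tube profiles with the one above. Here 7 members were higher and 2 lower in surface ectoderm, where 29.3% of all genes tested passed (15.3% higher and 14% lower). Spry4 had 31.5 and 47.8 CPM in surface ectoderm, against 0.929 and 1.68 CPM in neural tube (log2 fold change 5.01 ± 0.45, adjusted p = 6.71e-06). Spry1 had 79.8 and 95.6 CPM in surface ectoderm, against 5.02 and 7.56 CPM in neural tube (log2 fold change 3.84 ± 0.39, adjusted p = 1.84e-05). For both Sprouty genes the surface ectoderm libraries lay many times above the neural tube libraries. Etv4 had 108 and 111 CPM in surface ectoderm, against 20.1 and 30.7 CPM in neural tube, also without overlap (log2 fold change 2.13 ± 0.40, adjusted p = 0.00163). Etv5, Dusp6, Dusp4 and Spry2 were higher by a log2 fold change of 2.12 ± 0.37, 2.37 ± 0.50, 1.25 ± 0.25 and 2.50 ± 0.43, with adjusted p of 0.00103, 0.00367, 0.00237 and 9.79e-04.

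Of the receptors, 2 were lower in surface ectoderm. Fgfr1 had 55.3 and 43.4 CPM in surface ectoderm, against 136 and 81.1 CPM in neural tube, with no overlap (log2 fold change -1.19 ± 0.15, adjusted p = 7.57e-05). Fgfr3 had 4.64 and 1.69 CPM in surface ectoderm, against 10.4 and 3.36 CPM in neural tube, where the libraries overlapped (log2 fold change -1.17 ± 0.35, adjusted p = 0.0238), and its adjusted p was 0.358 without the library block and 0.0744 with DESeq2. Fgfr2 had 71.4 and 107 CPM in surface ectoderm, against 161 and 84.4 CPM in neural tube, and the libraries went opposite ways (log2 fold change -0.48 ± 0.24, adjusted p = 0.164, 0.30 without replicate 1). Without replicate 2 and without replicate 1, in that order, the log2 fold changes were 1.88 and 3.51 for Spry2, 1.84 and 0.69 for Dusp4, 3.96 and 1.46 for Dusp6 and 3.22 and 1.25 for Etv5.

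Of the 47 pathway genes, 16 were higher and 7 lower in surface ectoderm, with a median log2 fold change of 0.22, against 0.01 over all genes. Among feedback inhibitors beyond the members, 5 of 10 were higher and 0 lower, namely Dusp9, Dusp2, Il17rd, Spred1 and Dusp7. Gpc4, a heparan sulfate co-receptor, had 64.5 and 146 CPM in surface ectoderm, against 3.53 and 7.98 CPM in neural tube (log2 fold change 4.20 ± 0.35, adjusted p = 4.67e-06). Fgf15 had 2.01 and 0.281 CPM in surface ectoderm, against 70.6 and 147 CPM in neural tube (log2 fold change -6.57 ± 0.78, adjusted p = 5.87e-05). Fgfr4 had 0.386 and 0.562 CPM in surface ectoderm, against 19.5 and 3.78 CPM in neural tube (log2 fold change -4.77 ± 0.58, adjusted p = 7.34e-05). Fgf5 had 2.4 and 1.26 CPM in surface ectoderm and no UMI in neural tube, which makes it at least 4.3-fold higher in replicate 1, while in replicate 2 it was at the limit that a count of 0 allows.

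Along the path of the paraxial mesoderm, the tissue of the somites, caudal epiblast, presomitic mesoderm, segmenting mesoderm and somite form a series of stages. Segmenting cells were those with at least 2 of Mesp2, Ripply1 and Ripply2, 43 and 44 cells, and entered a second fit with a minimum of 40 cells and 13532 genes tested, chosen after the cells had been counted.

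**Figure D3:**
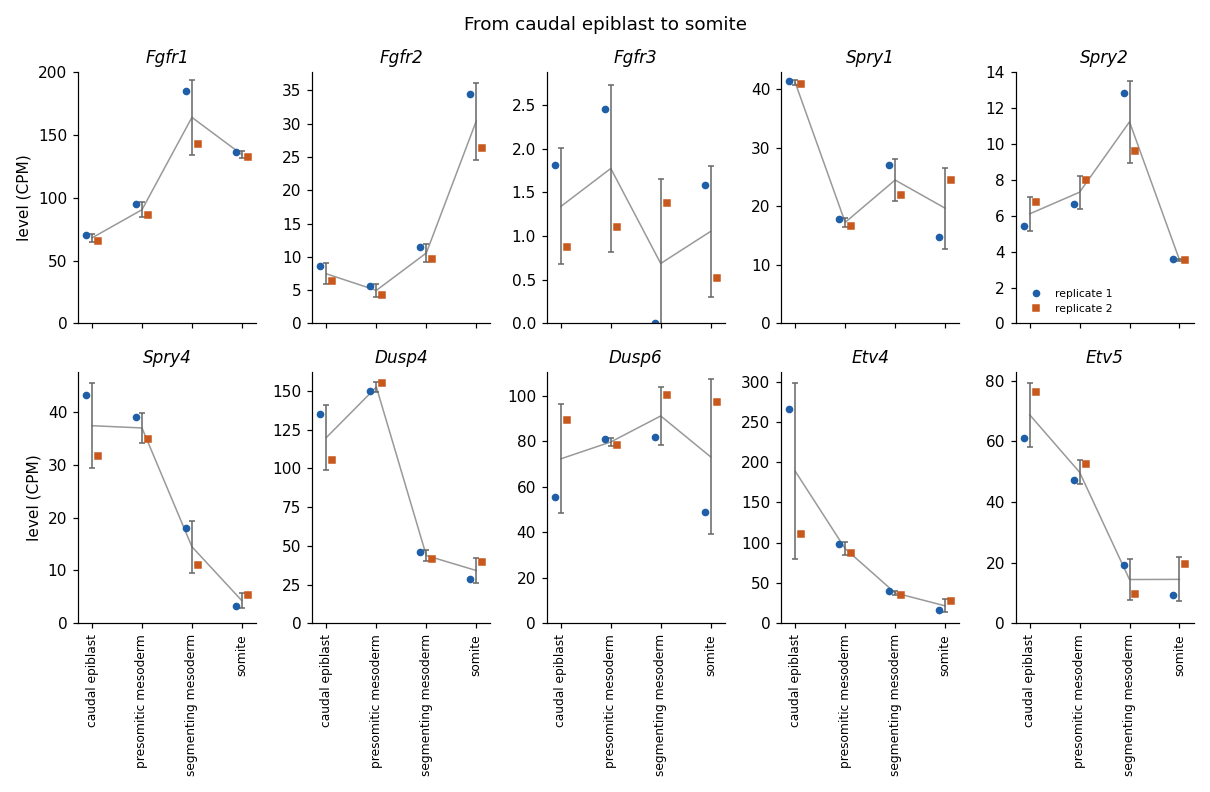
Level of each gene at 4 stages from caudal epiblast to somite. The y axis is CPM on a linear scale from 0 with its own range for each gene, points are the libraries, and the line and whiskers are the mean ± SD of the 2 libraries. Spry4, Dusp4, Etv4 and Etv5 end low in somite, Fgfr1 is higher in segmenting mesoderm and somite than in presomitic mesoderm, Fgfr2 is highest in somite, and the mean of Dusp6 lies between 72.4 and 91.2 CPM at every stage.

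Presomitic mesoderm against caudal epiblast gave 1 called member, Spry1, at 17.8 and 16.7 CPM in presomitic mesoderm, against 41.4 and 40.8 CPM in caudal epiblast. The types did not overlap and both libraries gave close to the same difference (log2 fold change -1.26 ± 0.29, adjusted p = 0.015). Of all genes tested, 10.2% passed (4.57% higher and 5.59% lower). Without the library block the adjusted p of Spry1 was 0.0814 and no member passed. Etv4 had 98.4 and 87 CPM in presomitic mesoderm, against 266 and 111 CPM in caudal epiblast, and most of the difference lay in replicate 1 (log2 fold change -1.03 ± 0.32, adjusted p = 0.0636). It passed with the minimum of 40 cells (adjusted p = 0.0428) and, with Fgfr1 (adjusted p = 0.0412), without the filter on low counts (adjusted p = 0.00222). Spry4, Dusp4, Dusp6, Etv5, Spry2, Fgfr2 and Fgfr3 gave log2 fold changes of -0.03, 0.33, 0.19, -0.46, 0.26, -0.60 and 0.39, none past the threshold. Of the 47 pathway genes, 11 were higher and 1, Spred3, was lower in presomitic mesoderm, with a median of 0.29. The ligand genes Fgf4 (30.6 and 11.4 CPM in presomitic mesoderm, against 2.57 and 0.261 CPM in caudal epiblast) and Fgf3 (67.8 and 64.7 CPM, against 8.28 and 2.43 CPM) were higher (log2 fold change 4.05 ± 0.43, adjusted p = 2.29e-04; log2 fold change 3.64 ± 0.52, adjusted p = 7.44e-04). Fgf15 and Fgf9 were higher too, by 2.07 and 1.80.

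Segmenting mesoderm against presomitic mesoderm gave 1 member higher and 1 lower, where 2% of all genes tested passed (1.01% higher and 0.983% lower) and their median log2 fold change was -0.12. Fgfr1 had 185 and 143 CPM in segmenting mesoderm, against 94.7 and 86.2 CPM in presomitic mesoderm, with no overlap (log2 fold change 0.81 ± 0.16, adjusted p = 0.0132). Dusp4 had 46.2 and 41.2 CPM in segmenting mesoderm, against 150.0 and 155 CPM in presomitic mesoderm, far below in both libraries (log2 fold change -1.84 ± 0.29, adjusted p = 0.00391). Without the library block the adjusted p of Fgfr1 was 0.187 and Dusp4 alone passed. Spry4, Etv4 and Etv5 gave -1.38 ± 0.40, -1.33 ± 0.48 and -1.82 ± 0.52 (adjusted p = 0.111, 0.219 and 0.106), and these 3 passed when low genes were not filtered out. Dusp6 had 82.2 and 100.3 CPM in segmenting mesoderm, against 81.1 and 78.4 CPM in presomitic mesoderm (log2 fold change 0.12 ± 0.45, adjusted p = 0.939), and did not pass. On the pathway lists, 1 of 46 tested genes was higher and 3 were lower. Fgf18, the ligand gene that was higher, had 35.9 and 46.7 CPM in segmenting mesoderm, against 2.2 and 1.83 CPM in presomitic mesoderm (log2 fold change 4.22 ± 0.49, adjusted p = 3.80e-04). Fgf17 and Fgf8 were lower, with log2 fold changes of -5.52 and -2.08, and Fgf4 had no UMI in segmenting mesoderm, which makes it at least 7.95-fold lower in replicate 1 and at least 2.78-fold lower in replicate 2.

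Somite against presomitic mesoderm gave 2 members higher and 4 lower, where 9.83% of all genes tested passed (5.05% higher and 4.78% lower). The comparison shares its presomitic profiles with the one before it. Spry4 had 3.31 and 5.26 CPM in somite, against 39 and 34.9 CPM in presomitic mesoderm (log2 fold change -3.10 ± 0.32, adjusted p = 5.35e-05). Dusp4 had 28.3 and 39.8 CPM in somite, against 150.0 and 155 CPM in presomitic mesoderm (log2 fold change -2.14 ± 0.23, adjusted p = 6.51e-05). Both genes were several times lower in somite in each library. Etv4 had 16.1 and 27.3 CPM in somite, against 98.4 and 87 CPM in presomitic mesoderm (log2 fold change -2.07 ± 0.37, adjusted p = 0.00322), and Etv5 had 9.34 and 19.6 CPM in somite, against 47.1 and 52.5 CPM in presomitic mesoderm (log2 fold change -1.82 ± 0.32, adjusted p = 0.00282). The ETS genes did not overlap between the types either, with replicate 2 giving the smaller difference. Fgfr2 had 34.5 and 26.3 CPM in somite, against 5.65 and 4.3 CPM in presomitic mesoderm, higher by about as much in either library (log2 fold change 2.64 ± 0.31, adjusted p = 1.36e-04). The presomitic values were close to the 4.94 CPM of blood, so the size of this change depends on the background. Fgfr1 had 136 and 133 CPM in somite, against 94.7 and 86.2 CPM in presomitic mesoderm (log2 fold change 0.60 ± 0.14, adjusted p = 0.0128). Without the library block the adjusted p was 0.237 for Fgfr1 and 0.0764 for Etv5.

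Dusp6, by contrast with Dusp4, did not pass. It had 49.1 and 97.3 CPM in somite, against 81.1 and 78.4 CPM in presomitic mesoderm, so that replicate 1 was lower and replicate 2 higher (log2 fold change -0.18 ± 0.38, adjusted p = 0.844). Whether Dusp6 differs from the other feedback genes in this was not tested. Spry2 (log2 fold change -0.99 ± 0.31, adjusted p = 0.0625) passed when low genes were kept (adjusted p = 0.0426), and Spry1 (log2 fold change 0.20 ± 0.32, adjusted p = 0.769) and Fgfr3 (log2 fold change -0.72 ± 0.45, adjusted p = 0.385) did not pass.

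On the pathway lists, 7 of 47 genes were higher and 9 lower in somite, with a median of -0.20 (all genes, -0.01), and of the 9 ligand genes 1 was higher and 6 were lower. Fgf3 had 1.01 and 1.23 CPM in somite, against 67.8 and 64.7 CPM in presomitic mesoderm (log2 fold change -5.91 ± 0.72, adjusted p = 1.90e-04). Fgf17 had 4.02 and 2.63 CPM in somite, against 68.7 and 113 CPM in presomitic mesoderm (log2 fold change -4.66 ± 0.42, adjusted p = 2.72e-05). Fgf15 had 4.17 and 1.75 CPM in somite, against 77.3 and 43.7 CPM in presomitic mesoderm (log2 fold change -4.30 ± 0.72, adjusted p = 0.00200). All of these values were below 5 CPM in somite and above 40 CPM in presomitic mesoderm. Fgf4 had no UMI in somite, at least 71.1-fold lower in replicate 1 and at least 21.8-fold lower in replicate 2.

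Lateral plate, the mesoderm of the body wall and gut wall, was set against presomitic mesoderm after levels had been seen. It gave 2 members higher and 4 lower, where 15.2% of all genes tested passed (8.52% higher and 6.65% lower). Fgfr2 had 49.3 and 32.1 CPM in lateral plate, against 5.65 and 4.3 CPM in presomitic mesoderm (log2 fold change 3.0 ± 0.29, adjusted p = 2.01e-05). Here too the presomitic values were close to the 4.94 CPM of blood, and the size of the change depends on the background. Fgfr3 had 14.2 and 4.02 CPM in lateral plate, against 2.45 and 1.1 CPM in presomitic mesoderm (log2 fold change 2.26 ± 0.32, adjusted p = 3.56e-04), and its adjusted p was 0.109 without the library block. Both receptors were higher in each library, and Fgfr3 by more in replicate 1. Spry4 had 4.89 and 5.12 CPM in lateral plate, against 39 and 34.9 CPM in presomitic mesoderm (log2 fold change -2.90 ± 0.27, adjusted p = 1.43e-05). Spry2, Dusp4 and Etv4 were lower by log2 fold changes of -1.67 ± 0.28, -1.18 ± 0.20 and -1.56 ± 0.33 (adjusted p = 0.00141, 0.00171 and 0.00657). Dusp6 (log2 fold change -1.09 ± 0.37, adjusted p = 0.0704) passed with the minimum of 40 cells (adjusted p = 0.048) and without the filter (adjusted p = 0.00495). On the pathway lists, 3 of 47 genes were higher and 9 lower, with a median of -0.13. Fgf8 had 10.5 and 3.35 CPM in lateral plate, against 194 and 158 CPM in presomitic mesoderm (log2 fold change -4.77 ± 0.36, adjusted p = 2.68e-06). Fgf17 and Fgf3 were lower, with log2 fold changes of -4.74 and -4.64, and Fgf4 had 0.134 and 0 CPM in lateral plate, against 30.6 and 11.4 CPM in presomitic mesoderm.

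Endothelium, the lining of blood vessels, was set against lateral plate. It gave 2 members higher and 3 lower, where 33% of all genes tested passed (17% higher and 16% lower). All 3 receptors were lower in endothelium. Fgfr2 had 4.76 and 5.22 CPM in endothelium, against 49.3 and 32.1 CPM in lateral plate, and in endothelium was at the level of blood (log2 fold change -2.96 ± 0.33, adjusted p = 2.04e-05). Its mean in endothelium was 2.37 CPM without marked doublets. Fgfr3 had 1.06 and 0.454 CPM in endothelium, against 14.2 and 4.02 CPM in lateral plate (log2 fold change -3.39 ± 0.41, adjusted p = 3.70e-05). The endothelium values of Fgfr3 rested on 10 and 2 UMIs, and those of lateral plate differed widely between libraries. Fgfr1 had 52.5 and 45.2 CPM in endothelium, against 80.9 and 74.3 CPM in lateral plate (log2 fold change -0.57 ± 0.14, adjusted p = 0.00825). For each receptor both endothelium libraries were below both lateral plate libraries, and how many of all genes separate in this way was not counted. Spry2 had 5.08 and 3.86 CPM in endothelium, against 1.97 and 2.68 CPM in lateral plate, with both libraries higher (log2 fold change 1.13 ± 0.31, adjusted p = 0.0143). Spry4 had 9.21 and 7.95 CPM in endothelium, against 4.89 and 5.12 CPM in lateral plate (log2 fold change 0.90 ± 0.31, adjusted p = 0.0404). The call for Spry4 was lost with a gate margin of 1 marker (adjusted p = 0.241), without marked doublets (0.112), without the library block (0.0954) and without the mitochondrial floor (0.0708), and that for Fgfr1 without the library block (0.127). Dusp6 (log2 fold change 1.00 ± 0.38, adjusted p = 0.0614) passed with the minimum of 40 cells (adjusted p = 0.0444) and without the filter (adjusted p = 0.00602), whereas Dusp4, at 62.2 and 63.8 CPM in endothelium and 62.4 and 74.3 CPM in lateral plate, did not pass (log2 fold change -0.01 ± 0.21, adjusted p = 0.988).

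On the pathway lists, 12 of 47 genes were higher and 9 lower in endothelium, with a median of 0.02 (all genes, -0.05). Dusp2, a phosphatase gene induced by ERK, had 96 and 94.2 CPM in endothelium, against 1.66 and 0.975 CPM in lateral plate (log2 fold change 6.22 ± 0.35, adjusted p = 6.96e-08). Ier3, an immediate early gene, had 25.2 and 27.9 CPM in endothelium, against 4.3 and 2.44 CPM in lateral plate (log2 fold change 3.16 ± 0.44, adjusted p = 1.29e-04). Fgf10, a ligand gene of mesenchyme, had 2.75 and 1.14 CPM in endothelium, against 13.1 and 13.7 CPM in lateral plate (log2 fold change -2.54 ± 0.35, adjusted p = 1.07e-04). Fgf3 was higher in endothelium (log2 fold change 2.50 ± 0.58, adjusted p = 0.00532). Endothelium had 76 and 14 cells marked as doublets among its 410 and 304, against 14 and 10 among 1097 and 1179 in lateral plate, and their part in these results was not tested beyond the values without them given here.

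The 3 epithelial types (neural tube, surface ectoderm and gut endoderm) were also averaged and set against 3 mesoderm types (presomitic mesoderm, somite and lateral plate). This gave 3 members higher and 3 lower, where 36.7% of all genes tested passed (17.1% higher and 19.6% lower). Fgfr2 was the clearest, higher in epithelial types (log2 fold change 2.13 ± 0.16, adjusted p = 8.85e-07), with every epithelial library above every library of the 3 mesoderm types except replicate 2 of gut endoderm, which at 46.9 CPM lay below replicate 1 of lateral plate at 49.3 CPM. Spry1 (log2 fold change 0.87 ± 0.22, adjusted p = 0.00743) and Fgfr3 (log2 fold change 0.78 ± 0.22, adjusted p = 0.0146) were higher, and Fgfr1 (log2 fold change -0.42 ± 0.08, adjusted p = 0.00177), Dusp4 (log2 fold change -0.61 ± 0.14, adjusted p = 0.00401) and Dusp6 (log2 fold change -1.04 ± 0.25, adjusted p = 0.00677) were lower. These averages cover types that differ widely, since Spry1 was highest in surface ectoderm and lowest in neural tube, both epithelial. Caudal epiblast and endothelium entered neither average. Their Fgfr2, at 8.57 and 6.35 CPM and at 4.76 and 5.22 CPM, was below every library of the 3 epithelial types, somite and lateral plate. The result therefore holds for the types averaged and not for epithelia in general. Without the library block the adjusted p was 0.0527 for Fgfr1, 0.263 for Fgfr3 and 0.0549 for Dusp6. Etv4 and Etv5 gave 0.14 ± 0.22 and 0.07 ± 0.20 and did not pass. On the pathway lists, 4 of 47 genes were higher and 14 lower, with a median of -0.17. Of the genes with the largest changes, Fgf18, Fgf3 and Fgf10 were lower, with log2 fold changes of -3.97, -3.02 and -1.92, and Fgfr4 was higher by 2.66.

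Over the 8 types, members of the same role did not all share a pattern. The mean log2(CPM + 5) of Etv4 followed that of Spry4 (Pearson r = 0.95 over 8 types) and of Dusp4 (r = 0.85), and Dusp4 followed Spry4 (r = 0.88). Dusp6 followed Dusp4 less closely (r = 0.64), Etv5 followed Etv4 at r = 0.79, and Spry1 followed Spry2 at r = 0.79. Against Fgf8, r was 0.74 for Etv4, 0.74 for Dusp4, 0.70 for Spry4, 0.69 for Etv5, 0.61 for Spry2, 0.50 for Dusp6 and 0.29 for Spry1, and for the receptors it was -0.05 for Fgfr1, -0.51 for Fgfr3 and -0.69 for Fgfr2. These are descriptions over 8 points that share libraries and depth. The genes of like pattern named next are those with the highest r of 7417 candidates for each member. Whether r of this size arises by chance among so many genes was not tested. Among genes of at least 20 CPM in some type of each library, the 3 most like Etv4 were Fgf17 (r = 0.96), Ciart (0.96) and Pank2 (0.95), those most like Spry4 were Ube4b (0.95), Fgf17 (0.93) and Csnk1g1 (0.92), and those most like Dusp4 were Fbxo28 (0.98), Ube4b (0.95) and Suz12 (0.94). For Dusp6 they were Cks1b (0.94), Noct (0.91) and Mms19 (0.88), for Etv5 Fbxl14 (0.98), Ptk7 (0.95) and Cdx2 (0.93), for Spry1 Rab11fip1 (0.94), Mink1 (0.94) and Baz2a (0.93), and for Spry2 Cd63 (0.93), Cdkn1a (0.90) and Cyb5a (0.90). For the receptors they were Coil (0.97), Cep131 (0.97) and Tsc22d3 (0.95) for Fgfr1, Fzr1 (0.95), Cdc25b (0.94) and Glis2 (0.92) for Fgfr2, and Grb10 (0.98), Ackr3 (0.93) and Uqcrc2 (0.87) for Fgfr3.

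Barcodes with few mitochondrial UMIs (under 0.3%) were left out of the levels above. Relative to kept cells they gave low median levels for the 3 receptors and for Spry2. There were 11242 such barcodes in replicate 1 and 5184 in replicate 2 with at least 2000 UMIs, at a median of 5598.5 and 4830 UMIs. Passed through the same gates, they gave 8 and 6 types with 50 or more barcodes. The ratio of CPM in these barcodes over CPM in kept cells of the same type had a median of 0.542 in replicate 1 and 0.341 in replicate 2 for Fgfr1, and of 0.451 and 0.279 for Fgfr2. All ratios of Fgfr1 were below 1, and those of Fgfr2 reached 1.25 in 1 type of replicate 2. Fgfr3 had medians of 0.461 and 0, with ratios of 0.12 to 2.10 in replicate 1, on 1 to 40 UMIs a type, and no UMI in 5 of the 6 types of replicate 2. The medians were 1.24 and 1.11 for Etv4, 1.14 and 0.988 for Etv5, 1.16 and 0.936 for Dusp4, 0.99 and 1.02 for Dusp6, and 1.14 and 0.813 for Spry4, with ratios on both sides of 1. The medians of Spry1 were 0.825 and 0.858, and those of Spry2 were 0.564 and 0.306, of the size of the receptors' medians. The ratios of Spry2 ran from 0 to 1.17 in replicate 1, on 0 to 33 UMIs a type. In replicate 2 they ran from 0 to 0.85, on 0 to 9 UMIs a type. The same ratio was not computed over all genes, so whether any of these medians is unusual was not tested. The depth of these barcodes was below that of kept cells, and its part in the ratios was not tested.

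**Figure D4:**
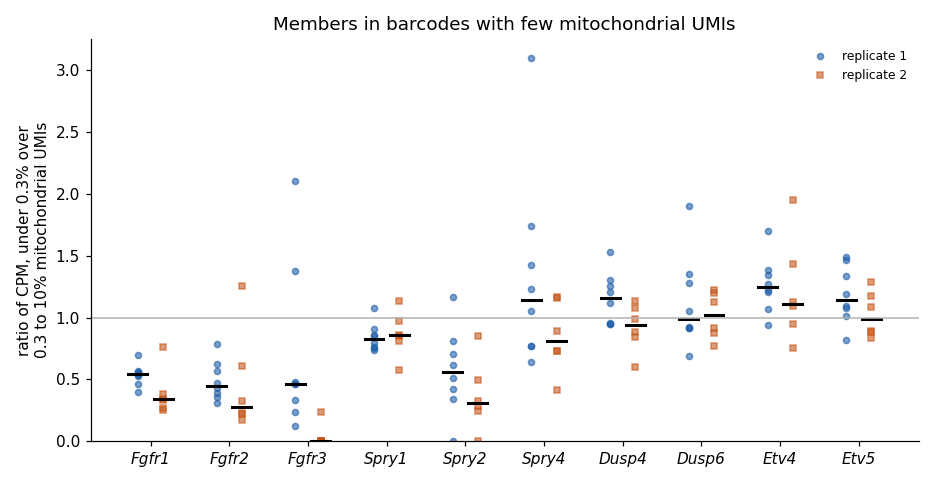
Ratio of each gene's CPM in barcodes with under 0.3% mitochondrial UMIs over its CPM in kept cells with 0.3 to 10%, on a linear axis from 0. Each point is 1 gated type with 50 or more such barcodes in replicate 1 (circles) or replicate 2 (squares), black bars are medians over types, and the grey line marks a ratio of 1. All points of Fgfr1 lie below the line, whereas those of Dusp6, Etv4 and Etv5 lie on both sides of it.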

How the data were processed

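The deposited matrices hold counts, whole numbers of UMIs for every gene in every barcode. The authors' pipeline was Cell Ranger 6.1.1 on mm10, per the submitters' processing notes; the annotation, any barcode filter and any removal of doublets are not stated there. No barcode had fewer than 500 UMIs, and totals were 295866003 and 150964773 UMIs. Everything else was computed here. The 10 members, the marker gates, the pathway lists and the comparisons were chosen with earlier results of these data known. Kept barcodes had at least 2000 UMIs and 0.3 to 10% mitochondrial UMIs. Scrublet in Scanpy 1.11.5 marked 1397 and 281 barcodes as doublets (6.21% and 2.08% of those scored, against 24.4% and 14.6% expected from loading), 970 and 273 of them kept; they stayed in, and were left out in an alternative.

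UMIs were summed per type and library, 16 profiles of 8 types, and fitted with edgeR 4.0.16 (TMM, filterByExpr, quasi-likelihood F test) in R 4.3.3 with library as a block, leaving 7 residual degrees of freedom. Adjusted p-values are Benjamini-Hochberg over 13730 genes, without 95 gate and check markers, at a threshold of 0.05. A standard error is the log2 fold change divided by the root of F. Every type of a library comes from the same suspension, and the deviations of 2 types from their means correlated by number in all 28 pairs (r from 0.43 to 0.77 over 7494 genes), so the block was kept. Sums have 2 values per type, which limits precision. The fit was tested on simulated data for neural tube against caudal epiblast: it recovered 67 of 91 genes with a log2 change of 1 and 103 of 107 with a change of 2, with 9 false calls among 13076 genes. The simulated types shared the same mean profile, had no library effect and were drawn independently. Genes with the fewest expected counts were not changed in it. Recovery and false calls may differ in the real data, where types deviate together and some members rest on few UMIs. Segmenting mesoderm entered a fit with a minimum of 40 cells. Comparisons of allantois and notochord were not run, since they held 8 to 16 cells a library. Pathway genes are named where they had the 4 largest changes past the threshold in a comparison, or where a count was 5 or fewer; genes of like pattern are the 3 with the highest Pearson r. Sequence windows were matched by symbol for 6 of the 10 members, at 8 start sites. Alternatives tried were other size factors, DESeq2 1.42.0, no block, no filter, other gates and cutoffs, no doublets and each library alone.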

Additional observations from a re-analysis of the deposited data

Results flagged for a closer look

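Signal of the members appeared in barcodes that the comparisons do not use, those with under 0.3% mitochondrial UMIs that passed the same gates. In replicate 1, 4076 such barcodes held 1392 UMIs of Fgfr1 and 3925 UMIs of Etv4. In replicate 2, 1744 such barcodes held 303 UMIs of Fgfr1 and 713 UMIs of Etv4. All 4 sums are above the 3 UMIs that a count of 0 allows, a limit that sums over so many barcodes would pass with little signal. Whether free RNA accounts for part of these UMIs was not tested. Groups of 2 libraries were too small to look for single libraries far from the rest.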

How the results depend on the processing

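Over the other size factors, DESeq2, gates, cutoffs and fits tried, 754 of the recomputed fold changes of members kept direction and side of the threshold, 18 lost and 12 gained a call, and 6 turned sign. With a library left out, which gives no test, 147 kept direction and 13 turned sign. No called value turned sign. The cause of these changes was not tested. Without the replicate block, the members called were 0 in presomitic mesoderm against caudal epiblast, 3 in endothelium against lateral plate, 3 in epithelial against mesoderm types and 1 in segmenting against presomitic mesoderm. All genes called without it were 336 in neural tube against caudal epiblast, 404 in presomitic mesoderm against caudal epiblast, 515 in somite, 863 in lateral plate and 108 in segmenting mesoderm against presomitic mesoderm, 2555 in endothelium against lateral plate, 2755 in epithelial against mesoderm types and 2117 in surface ectoderm against neural tube. With the block they were 948, 1394, 1350, 2083, 270, 4529, 5041 and 4028, in the same order. The block changed no call of a member other than those named with its p-value. Without the filter on low counts, 3 members were called in presomitic mesoderm against caudal epiblast. In segmenting against presomitic mesoderm, 5 members and 521 of all genes were called without the filter. With the minimum of 40 cells, 2 members were called in presomitic mesoderm against caudal epiblast. The numbers of all genes called in presomitic mesoderm against caudal epiblast under these settings are not given here. Whether members gained more calls there than genes in general was not tested.

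Sign turned for Spry4 in presomitic mesoderm against caudal epiblast with a gate margin of 1 (0.10), for Dusp4 in endothelium against lateral plate with RLE size factors (0.045), DESeq2 (0.043) and without doublets (0.031), and for Etv4 (-0.0095) and Etv5 (-0.012) in epithelial against mesoderm types without the mitochondrial floor. Leaving out a library leaves 1 profile per type and no test, and gave ranges that span 0 or turn sign. In presomitic mesoderm against caudal epiblast these were -0.18 to 0.17 for Spry4 and -0.16 to 0.52 for Dusp6, and in somite against presomitic mesoderm -0.24 to 0.55 for Spry1 and -0.69 to 0.30 for Dusp6. In endothelium against lateral plate they were -0.68 to 0.98 for Spry1 and -0.15 to 0.12 for Dusp4. In epithelial against mesoderm types they were -0.065 to -0.016 for Spry2, -0.047 to 0.33 for Etv4 and -0.055 to 0.16 for Etv5. In surface ectoderm against neural tube the range was -1.16 to 0.30 for Fgfr2. In segmenting against presomitic mesoderm it was -7.48 (a library at 0) to 0.30 for Fgfr3 and -0.0066 to 0.34 for Dusp6. Depth limits the members with fewer than 20 UMIs in a type and library, which were Fgfr3 in 9 of 16 profiles, Spry2 and Spry4 in 3 each, and Spry1 and Dusp6 in 1 each. Across 3 cell filters, 19 levels moved by over 1 SD and 221 did not, and 11 of the 19 moved without the mitochondrial floor. That SD is of 2 libraries, from 0.287 CPM for Dusp4 in surface ectoderm to 109 CPM for Etv4 in caudal epiblast, for example. These counts therefore do not measure how large the shifts were.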

Other observations

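Within caudal epiblast, cells were grouped by their own Fgf8 UMIs after thinning to 10500 UMIs, a split of cells within each library and not of samples. Etv4 had 218, 249 and 295 CPM in cells with 0, 1 and 2 or more Fgf8 UMIs in replicate 1, and 87.4, 117 and 124 CPM in replicate 2. Dusp4 had 82.1, 115 and 163 CPM in replicate 1, and 90, 86.2 and 120 CPM in replicate 2. Spry4 had 29.3, 37.1 and 52.6 CPM in replicate 1, and 25.1, 24.9 and 36.3 CPM in replicate 2. For these 3 genes the cells with 2 or more Fgf8 UMIs were above those with 0 in both libraries, and the Poisson intervals of those groups did not overlap for Dusp4 and Etv4 in either library. Fgfr2 ran the other way, with 18.7, 7.27 and 4.08 CPM in replicate 1 and 13.1, 4.54 and 2.34 CPM in replicate 2. Its values in cells with 2 or more Fgf8 UMIs were below the 4.94 CPM of blood. Spry1 had 37.8, 37.8 and 42.4 CPM in replicate 1 and 38.2, 36.3 and 47.0 CPM in replicate 2, and Etv5 had 57.4, 69.8 and 64.5 CPM in replicate 1 and 67.0, 77.1 and 81.0 CPM in replicate 2. Dusp6 had 49.7, 64.0 and 58.4 CPM in replicate 1 and 93.1, 99.8 and 88.5 CPM in replicate 2.

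In presomitic mesoderm grouped in the same way, Etv4 had 85.5, 91.6 and 109 CPM in replicate 1, and 82.2, 69.8 and 99.4 CPM in replicate 2. Dusp6 had 61.6, 72.1 and 106 CPM in replicate 1, and 63.8, 86.5 and 83.2 CPM in replicate 2, where the intervals of cells with 2 or more and with 0 Fgf8 UMIs overlapped. Dusp4 had 147, 152 and 148 CPM in replicate 1 and 164, 146 and 156 CPM in replicate 2. Spry4 had 26.1, 42.6 and 45.2 CPM in replicate 1, and 30.5, 36.9 and 43.5 CPM in replicate 2. Whether the genes differ from those in caudal epiblast in this was not tested. Intervals cover counting error only, cells of a library are not replicates, and no test was made.

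Intermediate mesoderm, 50 cells of replicate 2 and 5 of replicate 1, was too small to test. In replicate 2 it had 185 CPM of Etv4, 87.5 CPM of Fgfr2, 83.3 CPM of Etv5 and 52.2 CPM of Spry1.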
